A study of Mus musculus with 11 samples.

Results

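A set of 9 acute phase and complement genes was followed in 4T1 cells, which are grown in culture and derive from a mammary carcinoma of a BALB/c mouse: Saa1, Saa2, Saa3, Lcn2, C3, Cfb, C2, C1ra and Cd55 (in the table's capitals SAA1, SAA2, SAA3, LCN2, C3, CFB, C2, C1RA and CD55). They were chosen by name, and all 9 had a row among the 24197 genes of the table. Polyadenylated RNA was sequenced from 11 libraries in 4 groups, each library from a separate culture. Control cells (n = 2) received vehicle and were collected at 72 h. Cells of the 4HC group (n = 3) received 5 uM 4HC (4-hydroperoxy-cyclophosphamide, which releases activated cyclophosphamide in culture) for 4 h and were collected 68 h later. The third group (n = 3) received the same 4HC exposure with 10 ug/mL of an antibody against IFNAR1, a subunit of the type I interferon receptor, kept on the cells until collection. The last group (n = 3) received 250 U/mL IFNβ, a type I interferon, for 4 h, and its sample labels place collection 2 h later, in step with the 72 h controls. The protocol text common to all samples gives 68 h instead, and the sample labels were followed. There was no group with antibody and no drug, and none with an unrelated antibody, so an effect of the antibody on its own cannot be told apart from its effect on the 4HC response.

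Acute phase proteins are plasma proteins whose synthesis rises in inflammation, mostly in the liver and to a lesser degree in epithelia and macrophages, under the control of cytokines such as Il6, Il1 and Tnf. Complement is a cascade of plasma proteases in which 3 arms, classical, lectin and alternative, all lead to cleavage of C3. Tumor cells and other epithelial cells can make several of these proteins themselves, and several complement genes are also known to respond to interferons.

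The levels are FPKM, fragments per kilobase of gene and M reads (M, mega), which the authors averaged over the libraries of a group. The reads of each library were solved from these means, as the single set of whole reads that gives a mean to all its 11 decimals. Libraries are given here from the deepest to the shallowest of a group, since they could not be tied to replicate numbers. Depths were 35.8 and 33.7 M reads in control, 39.3, 37.3 and 32.1 M with 4HC, 41.5, 38.4 and 38.3 M with 4HC and antibody, and 49.3, 42.0 and 34.7 M with IFNβ. Across genes with over 500 reads the highest library of a group was a median of 1.14 to 1.17 times the lowest. Markers of the mammary epithelium summed to 347 FPKM in control, 589 with 4HC, 597 with antibody and 410 with IFNβ. Markers of hepatocytes summed to at most 0.101 FPKM, with Ahsg and Cyp3a11 at 0 throughout. The leukocyte and the fibroblast and endothelium sums moved with 4HC too. The leukocyte list summed to 2.52 FPKM in control, 9.88 with 4HC, 9.57 with antibody and 1.35 with IFNβ. Nearly all of it was Cd68, which tumor cells also express, and S100a8, while Ptprc, which defines leukocytes, was at most 0.00897 FPKM and Emr1, Cd8a and S100a9 were at 0. The fibroblast and endothelium list summed to 0.609, 4.04, 4.99 and 0.579 FPKM in the same order, most of it Pdgfra. The part of these markers in the results that follow was not tested.

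Promoter sequence was found for 7 of the 9 genes in RefSeq (build GRCm38.p6), with none for Cfb and C2. Those of Saa1, Saa3, Lcn2, C3 and C1ra are shown because they pair a nearly silent gene (Saa1) with the genes that responded. Each is the 250 bases before the annotated start, read 5′ to 3′ on the gene's strand, with capitals on matches, on either strand, to 5 motifs: NF-kB (GGGNNNNNCC), C/EBP (TTNNGCAA), the interferon element ISRE (GAAANNGAAA), the STAT element GAS (TTCNNNGAA) and AP-1 (TGANTCA).
Saa1 (chr7:46742981-46743230, minus strand): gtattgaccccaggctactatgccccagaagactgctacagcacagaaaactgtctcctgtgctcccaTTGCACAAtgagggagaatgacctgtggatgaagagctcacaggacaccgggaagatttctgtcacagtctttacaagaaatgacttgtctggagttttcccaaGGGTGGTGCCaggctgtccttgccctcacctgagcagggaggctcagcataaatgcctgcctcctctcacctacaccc
Saa3 (chr7:46715677-46715926, minus strand): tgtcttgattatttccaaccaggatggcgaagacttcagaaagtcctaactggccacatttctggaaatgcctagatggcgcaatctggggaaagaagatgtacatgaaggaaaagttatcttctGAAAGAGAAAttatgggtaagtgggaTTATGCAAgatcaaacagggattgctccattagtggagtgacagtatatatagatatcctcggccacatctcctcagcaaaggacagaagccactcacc
Lcn2 (chr2:32387740-32387989, minus strand): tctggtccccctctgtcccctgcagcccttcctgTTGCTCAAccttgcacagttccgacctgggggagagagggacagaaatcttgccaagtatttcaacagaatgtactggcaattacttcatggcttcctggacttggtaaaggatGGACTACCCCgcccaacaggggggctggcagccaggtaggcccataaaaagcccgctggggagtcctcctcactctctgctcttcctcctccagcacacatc
C3 (chr17:57228137-57228386, minus strand): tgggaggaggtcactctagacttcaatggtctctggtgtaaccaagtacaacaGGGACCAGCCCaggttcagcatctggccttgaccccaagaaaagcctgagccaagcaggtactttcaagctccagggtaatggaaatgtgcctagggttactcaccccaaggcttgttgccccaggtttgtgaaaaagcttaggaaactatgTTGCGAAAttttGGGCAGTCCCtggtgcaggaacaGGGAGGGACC
C1ra (chr6:124512371-124512620, plus strand): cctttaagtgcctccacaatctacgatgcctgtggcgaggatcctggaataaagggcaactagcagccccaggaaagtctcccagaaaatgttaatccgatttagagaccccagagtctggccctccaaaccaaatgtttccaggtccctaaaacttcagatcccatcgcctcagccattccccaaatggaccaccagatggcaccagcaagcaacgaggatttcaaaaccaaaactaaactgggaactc

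A C/EBP match was found in Saa1, Saa2, Saa3, Lcn2 and C3, against 9.56% of the 32851 promoters searched. In Saa3 it spans bases -99 to -92 from the start, and in C3 bases -45 to -38. An ISRE match was found in Saa3, at bases -125 to -116, and in 2.98% of all promoters. The NF-kB letters are loose and matched 45.8% of all promoters. They matched Saa1, Saa2, Lcn2, C3 and Cd55, in Lcn2 at bases -102 to -93, and some of the matches in C3 and Cd55 overlap each other. None of the 7 promoters held a GAS match (7.02% of all promoters) or an AP-1 match (6.75%), and C1ra held no match to any of the motifs. The Saa1 and Saa2 promoters, 95.6% identical over 249 aligned bases, carried the same NF-kB and C/EBP letters. These matches are descriptions of the letters, and binding was not measured.

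The comparison of 4HC with control asks which of these genes the drug changed by 72 h. Of the 9 genes, 5 reached 0.5 FPKM in a group, and all 5 (Saa3, Lcn2, C3, Cfb and C1ra) were over 2-fold above control with 4HC, as were 14.5% of the 11616 genes that reached this level. Lcn2, C3 and C1ra reached 0.5 FPKM in control too, whereas Saa3 did so in the drug groups alone and Cfb in treated groups alone, so that these 2 had to differ from control and the count of 5 is a description. With 4HC and antibody the same 5 were over 2-fold above control, as were 14.8% of genes. Saa1, Saa2, C2 and Cd55 stayed below 0.5 FPKM in every group. A test on single libraries, limma on log2(FPKM + 0.1), could be run for Saa3, Cfb and C1ra, and all 3 rose. Their libraries did not overlap those of control. The search for library reads fixed this in advance, since it kept each 4HC library within 3-fold of the mean. Of the 10483 genes tested 14.8% rose and 2.06% fell, and 42.4% had all 4HC libraries above both controls. With antibody over control Lcn2 could be tested too and 4 of 4 rose, beside 15.2% of genes that rose and 2.91% that fell. These 4 did not overlap control either, which the search fixed in advance here too. Of all genes tested, 42% had all antibody libraries above both controls. In such cultures, a gene switched on in more cells and one with more RNA in each cell cannot be told apart. For Lcn2 and C3 more than 1 set of whole reads gave the 4HC mean, so that their increases with 4HC have no test.

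Saa3 encodes a serum amyloid A that in mice is made mostly outside the liver, and lies on chromosome 7 at 53967367 to 53971046 in mm9. It had 0.632 and 0.056 FPKM in the control libraries, from 12 reads and 1 read. With 4HC its levels were 19.0, 12.6 and 24.2 FPKM, and with 4HC and antibody 23.5, 17.9 and 16.6 FPKM. The libraries of both drug groups lay far above both controls and overlapped each other. Their place above control was fixed in advance by the search, which kept each library within 3-fold of the mean. With IFNβ the levels were 0.115, 0.314 and 0.271 FPKM, inside the range of the controls. The means stood 54.0-fold above control with 4HC and 56.1-fold with antibody. The limma difference was 5.74 on the log2 scale (SE 0.54, adjusted p = 1.18e-05) with 4HC and 5.83 (SE 0.54, adjusted p = 1.07e-05) with antibody. Between antibody and 4HC alone it was 0.09 (SE 0.48, adjusted p = 1). With IFNβ it was -0.08 (SE 0.54, adjusted p = 0.922). This last value rests on the control of 12 reads against that of 1 read. Without the shallower control it was -1.19, and without the deeper one it was 1.04, each against 1 control library.

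Lcn2 encodes lipocalin 2, which binds iron-carrying bacterial siderophores, and lies on chromosome 2 at 32240156 to 32243259. It was the most abundant member in every group. The control libraries had 14.6 and 18.0 FPKM. The mean with 4HC was 355 FPKM, above 99.2% of the 11616 genes, and 2 sets of library reads gave it, with single libraries between 218 and 551 FPKM in either set. With antibody the libraries had 351, 562 and 418 FPKM, a mean of 444 FPKM. The 4HC mean was thus 21.7-fold above control and the antibody mean 27.2-fold. Every drug-treated library was above both controls, whichever set is taken. In both drug groups the search fixed this in advance, since it kept each library within 3-fold of the mean. The limma difference of antibody over control was 4.74 (SE 0.47, adjusted p = 4.61e-05). With IFNβ the libraries had 5.70, 7.73 and 2.03 FPKM, all below both controls. The IFNβ mean of 5.15 FPKM was 3.16-fold below control, and Lcn2 fell by 1.83 on the log2 scale (SE 0.47, adjusted p = 0.0122, limma). Without the shallower control the adjusted p was 0.0641, at a log2 difference of -1.68.

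**Figure D1:**
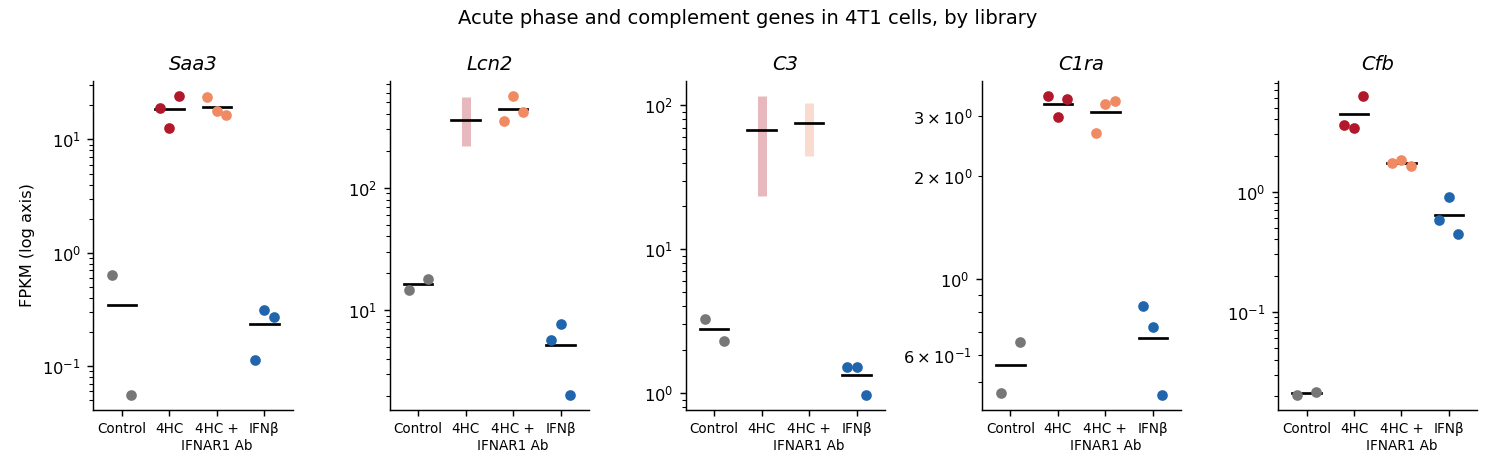
FPKM of each library (points) of Saa3, Lcn2, C3, C1ra and Cfb in the 4 groups on log axes that differ between panels, with the mean of a group as a black line; pale bars span the library levels over all sets of reads that fit where more than 1 set did. The libraries of both 4HC groups lie above the controls in all 5 panels. For points and pale bars alike the search fixed this in advance, since it kept each library within 3-fold of the mean. Of Saa3, C1ra and Cfb, whose libraries were all solved, Cfb alone has the 2 drug groups apart, and with IFNβ Lcn2 and C3 lie below the controls.

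C3 encodes the protein on which all complement arms meet, and spans 57343395 to 57367559 on chromosome 17. The control libraries had 3.27 and 2.30 FPKM. The mean was 67.6 FPKM with 4HC, 24.3-fold above control, and 75.5 FPKM with antibody, 27.1-fold above it. Several sets of library reads gave these means, 6 for 4HC and 4 for antibody. Over all of them the lowest library was 23.4 FPKM with 4HC and 44.1 FPKM with antibody. Every set thus puts all drug-treated libraries above both controls. The search fixed this in advance, since it kept each library within 3-fold of the mean. With IFNβ the libraries had 1.51, 1.51 and 0.972 FPKM, below both controls. C3 fell by 1.02 on the log2 scale with IFNβ (SE 0.25, adjusted p = 0.0151, limma), just past the 2-fold limit. Without the deeper control the difference was -0.77 (adjusted p = 0.0829), and without the shallowest IFNβ library it was -0.82 (adjusted p = 0.0270), both short of the limit for a call. With all genes kept in the test, whatever their level, the adjusted p was 0.0591.

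C1ra encodes a protease of the complex that opens the classical arm, and lies on chromosome 6 at 124462638 to 124473458. Its control libraries had 0.466 and 0.656 FPKM. With 4HC they had 3.42, 2.98 and 3.35 FPKM, and with antibody 2.67, 3.23 and 3.32 FPKM. Both drug groups were above control without overlap, and they overlapped each other. As for Saa3, the search fixed the gap from control in advance. The means were 5.80-fold above control with 4HC and 5.48-fold with antibody. The limma difference was 2.35 (SE 0.22, adjusted p = 1.15e-05) with 4HC and 2.27 (SE 0.22, adjusted p = 1.41e-05) with antibody. Antibody differed from 4HC alone by -0.08 (SE 0.20, adjusted p = 1). With IFNβ the libraries had 0.837, 0.724 and 0.459 FPKM and overlapped control, at a difference of 0.21 (SE 0.22, adjusted p = 0.466). The transcripts of C1ra and its copy C1rb are 98.0% identical over 2429 aligned bases, and C1rb was listed at 0.00645 to 0.0644 FPKM, so that reads of one could be counted for the other or left out.

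Cfb encodes factor B, the protease that joins cleaved C3 in the alternative arm, and lies on chromosome 17 at 34993318 to 34999459. It was nearly silent in control, with 2 reads in each library (0.0204 and 0.0216 FPKM). With 4HC the libraries had 3.63, 3.39 and 6.27 FPKM. With antibody they had 1.72, 1.83 and 1.64 FPKM, and with IFNβ 0.583, 0.910 and 0.441 FPKM. The 4 groups did not overlap, in the order control, IFNβ, 4HC with antibody, and 4HC. The search fixed in advance that the treated groups lay above control, since it kept each treated library within 3-fold of its group mean. The pooled reads of 4HC stood 206-fold above those of control (95% counting interval 80.3 to 758), and those of IFNβ 31.1-fold above them (12.0 to 115). The limma difference from control was 5.17 (SE 0.29, adjusted p = 5.55e-07) with 4HC, 3.92 (SE 0.29, adjusted p = 2.96e-06) with antibody and 2.57 (SE 0.29, adjusted p = 7.74e-05) with IFNβ. Of the 5 genes tested, Cfb alone rose with IFNβ.

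The comparison of 4HC with and without antibody asks how far the 4HC response depended on the interferon receptor. Among the 5 members, 1, Cfb, was over 2-fold lower in its mean with antibody (1.73 against 4.43 FPKM, 2.56-fold), as were 0.99% of the 11616 genes, and no member was over 2-fold higher (0.43% of genes). In the limma test 0 of the 3 members that could be tested passed in either direction, beside 0.638% of 10344 genes that fell and 0 that rose. Beside 481 of the 10344 genes with an unadjusted p under 0.05, 1 of the 3 members had one. That member was Cfb, at -1.25 on the log2 scale (SE 0.26, unadjusted p = 0.000598, adjusted p = 0.0623, limma). All 3 of its antibody libraries were below all 3 4HC libraries, as in 9.11% of genes. Its adjusted p ran from 0.0057 with voom, limma's model for reads, to 0.243 over the settings tried. The 4HC library of 6.27 FPKM carries part of the fold: without it the means were under 2-fold apart on the log2(FPKM + 0.1) scale. Expressed as the share of the 4HC increase over control that was kept with antibody, Cfb kept 38.7%. Its 3 antibody libraries, set singly against the group means, gave 38.6, 41.0 and 36.6%. Saa3 kept 104%, Lcn2 126%, C3 112% and C1ra 93.5%. The libraries of Saa3 ran from 89.1 to 127%, those of C1ra from 78.5 to 103% and those of Lcn2 from 98.7 to 161%. The median over the 5 genes was 104%.

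**Figure D2:**
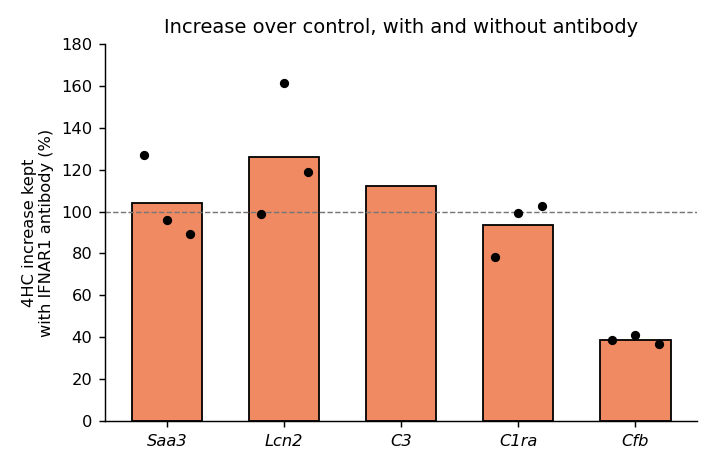
Share of the 4HC increase over control that was kept with the IFNAR1 antibody, in percent, from group means (bars) and from each antibody library against the group means (points; none for C3, whose libraries could not be solved). Cfb kept 38.7% and its libraries lie close together, while the other bars stand between 93.5 and 126%. The dashed line marks the full 4HC increase.

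**Figure D3:**
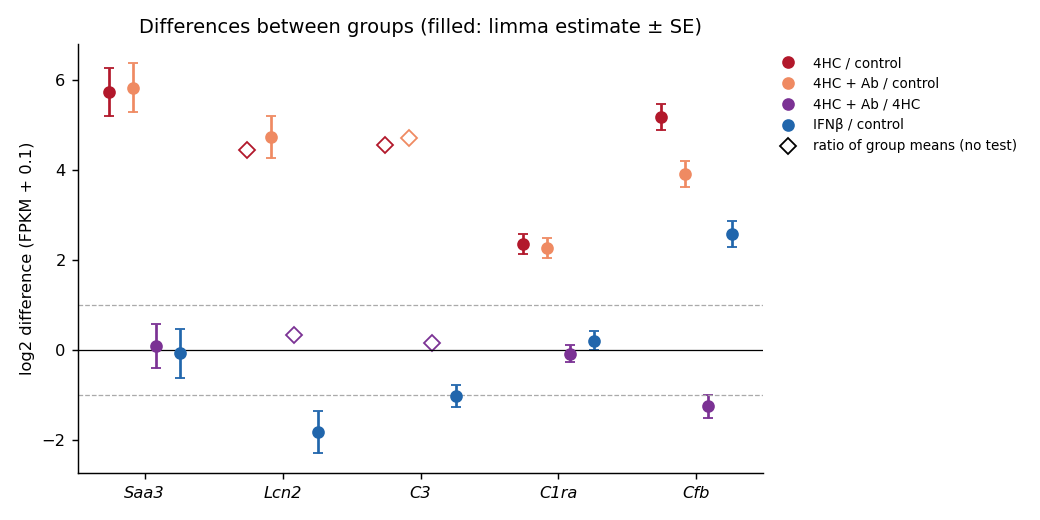
Differences between groups on the log2(FPKM + 0.1) scale for the 5 members above 0.5 FPKM; filled points are limma estimates with their SE as bars, open diamonds ratios of group means where no test could be run, and dashed lines mark 2-fold. The 4HC and antibody points lie between 2.27 and 5.83 above control, Cfb has the only antibody difference beyond the dashed line, and with IFNβ Cfb lies above it while Lcn2 and C3 lie below.

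The comparison of IFNβ with control asks which of these genes differed after a short exposure to interferon without 4HC. The paper's methods seed the wells for IFNβ with more cells than those for 4HC. If the controls were seeded as for 4HC, an effect of cell density cannot be told apart from that of IFNβ. Among the means of the 5 members, 1 was over 2-fold above control (7.62% of all genes) and 2 were over 2-fold below it (4.06%). The limma test called the same genes: Cfb rose, while Lcn2 and C3 fell, against 7.32% of the 10835 genes tested that rose and 3.63% that fell. These 3 had no overlap between IFNβ and control libraries, as had 33.5% of genes upwards and 26.7% downwards. For Cfb the search for library reads fixed this in advance. Saa3 and C1ra passed in neither direction. The shallowest IFNβ library had the lowest level of the 3 for Lcn2, C3, C1ra and Cfb, and the middle one for Saa3. The fall of Lcn2 and C3 thus went against their direction with 4HC, and Cfb went in the same direction under both. The comparisons with control share its libraries.

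The remaining 4 genes had a handful of reads per library. Saa1 and Saa2 encode the serum amyloid A proteins that the mouse liver secretes in the acute phase, and their transcripts are 94.4% identical over 606 aligned bases, so that reads could be split between them. Saa2 had 1 and 0 reads in control, 7, 3 and 7 with 4HC, 4, 8 and 3 with antibody, and 1, 1 and 0 with IFNβ. Its drug-treated libraries were all above both controls, and the pooled reads of 4HC stood 10.9-fold above control (95% counting interval 1.70 to 454). Saa1 had 3 and 2 reads in control, 1, 1 and 0 with 4HC, and 4, 1 and 0 with antibody. It had none with IFNβ, where 0 reads in 126.0 M allow up to 0.0392 FPKM. Its IFNβ libraries were thus below both controls, at 0 reads against 5 (ratio 0, counting interval 0 to 0.601), and the 0.5 FPKM filter kept it out of the test. The 4HC libraries of Saa1 were below both controls too, at 2 reads against 5. The ratio of 4HC to control for Saa1 was 0.255 (counting interval 0.0243 to 1.56), so a direction was not detectable at this depth. Saa1 and Saa2 lie within 53995868 to 54009684 on chromosome 7, in a cluster with Saa3, which had 1057 reads with 4HC.

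C2 encodes the protease that joins cleaved C4 in the classical and lectin arms. It lies next to Cfb on chromosome 17, with 87 bases between the mapped spans of the genes, at 34999546 to 35019045. It had 4 and 1 reads in control, 4, 2 and 4 with 4HC, 3, 4 and 4 with antibody, and 4, 5 and 10 with IFNβ. The groups overlapped in all 4 comparisons, and the ratio of 4HC to control was 1.28 (counting interval 0.398 to 4.76), beside the 206-fold of its neighbour Cfb. Cd55 encodes decay-accelerating factor, a membrane protein that takes C3 convertases apart, and lies on chromosome 1 at 132335606 to 132359317. It had 0 and 5 reads in control, 7, 0 and 5 with 4HC, 6, 2 and 2 with antibody, and 4, 3 and 1 with IFNβ, with a ratio of 4HC to control of 1.53 (0.502 to 5.55). The groups overlapped here too. These intervals cover counting error only, and they leave changes of several fold in C2 and Cd55 undetectable at this depth.

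**Figure D4:**
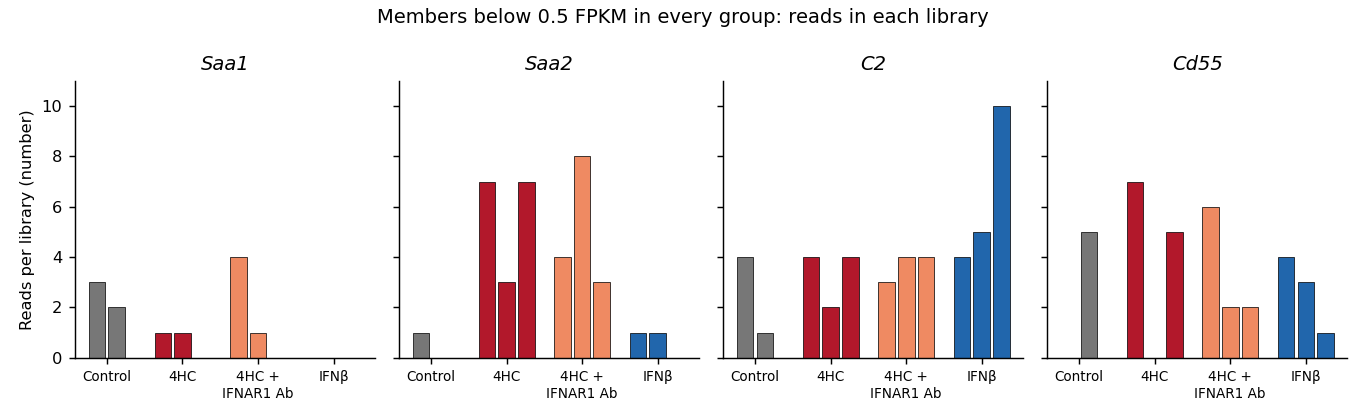
Reads in each library (bars, deepest to shallowest within a group; a missing bar is 0 reads) for Saa1, Saa2, C2 and Cd55, the 4 members below 0.5 FPKM in every group. No library has more than 10 reads, and in Saa2 alone all libraries of both 4HC groups stand above both controls.

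Other genes of the same pathways were taken from lists and named by their level. Of 28 acute phase genes, members included, 11 reached 0.5 FPKM. With 4HC 6 of the 9 that could be tested rose and 0 fell, and with antibody 7 of 10 rose and 1 fell. Of all genes tested, 14.8% rose with 4HC and 15.2% with antibody, and 2.06% and 2.91% fell. The 6 acute phase genes that rose with 4HC were Saa3, Serpina3g, Steap4, Ptx3, Hp and Lbp. They were below 0.5 FPKM in control and reached it through the drug groups alone, so that their number is partly fixed by the filter. The other 5 reached it in control. In the antibody comparison 0 of 9 passed, near the 0.638% of all genes that fell. With IFNβ 0 of 11 rose, beside 7.32% of all genes. Lcn2 and Hpx fell, beside 3.63%. Serpina3g, a serpin, went from 0.176 FPKM in control to 5.48 with 4HC and 5.96 with antibody, and rose in both (4HC adjusted p = 5.08e-06, limma). Steap4, a metalloreductase, rose from 0.0273 to 3.89 FPKM with 4HC and 4.37 with antibody (4HC adjusted p = 1.32e-07). Cp, which encodes the copper-carrying ferroxidase ceruloplasmin, had 3.87, 29.7 and 37.5 FPKM in the same groups and could not be tested. The metallothioneins stayed within the 2-fold limit, with 103, 59.4 and 56.8 FPKM for Mt1, lower in the drug groups, and 58.4, 86.2 and 81.2 FPKM for Mt2, higher in them.

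Of 18 genes of the classical and lectin arms, 4 reached 0.5 FPKM. With 4HC, and with antibody, 3 of the 4 rose, beside 14.8% and 15.2% of all genes tested. These were C1ra, C1s1 and Masp1, of which Masp1 reached 0.5 FPKM through treated groups alone. C1s1 encodes the protease that C1r activates, and its means were 0.517 FPKM in control, 7.54 with 4HC, 8.11 with antibody and 0.363 with IFNβ (4HC 3.65 on the log2 scale, adjusted p = 3.78e-07, limma). Masp1, a protease of the lectin arm, rose from 0.317 to 3.82 FPKM with 4HC (adjusted p = 6.87e-07). Masp2, which cleaves C4 and C2 in that arm, fell by 1.19 on the log2 scale with 4HC, from 1.91 to 0.746 FPKM (adjusted p = 0.00277), and fell with IFNβ too, to 0.795 FPKM (adjusted p = 0.00542).

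In the alternative arm and terminal list, 3 of 11 genes reached 0.5 FPKM: C3, Cfb and Cfp, which encodes properdin, a stabilizer of the alternative convertase. Cfp had 2.59 FPKM in control, 2.16 with 4HC, 2.39 with antibody and 1.42 with IFNβ and passed in no comparison. Cfd, the protease that cleaves factor B, was at 0 in all groups, and so were C6 and C8b of the terminal complex. These were named after their values were seen.

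Of 16 names listed as complement regulators, 15 had a row. Of these, 3 reached the level, 1 of them (Susd4) through the drug groups alone. Clu, which encodes clusterin, an inhibitor of the terminal complex, had 12.7 FPKM in control, 124 with 4HC, 128 with antibody and 13.9 with IFNβ, and rose with antibody over control (3.40 on the log2 scale, adjusted p = 3.47e-05, limma); its 4HC libraries could not be solved. Cr1l, the rodent membrane regulator Crry, was the most abundant of the membrane-bound ones, with means of 12.1 FPKM in control against 9.28 under 4HC and 11.1 under IFNβ, and it stayed within 2-fold of control. Susd4 passed in no comparison. Of 11 names listed as complement receptors, 10 had a row and 2 reached the level. Itgb2, the beta chain of the receptors for cleaved C3, rose from 1.23 to 6.95 FPKM with 4HC (adjusted p = 0.000136), and C1qbp, a mitochondrial protein that also binds C1q, fell from 136 to 66.3 FPKM (adjusted p = 0.00013).

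**Figure D5:**
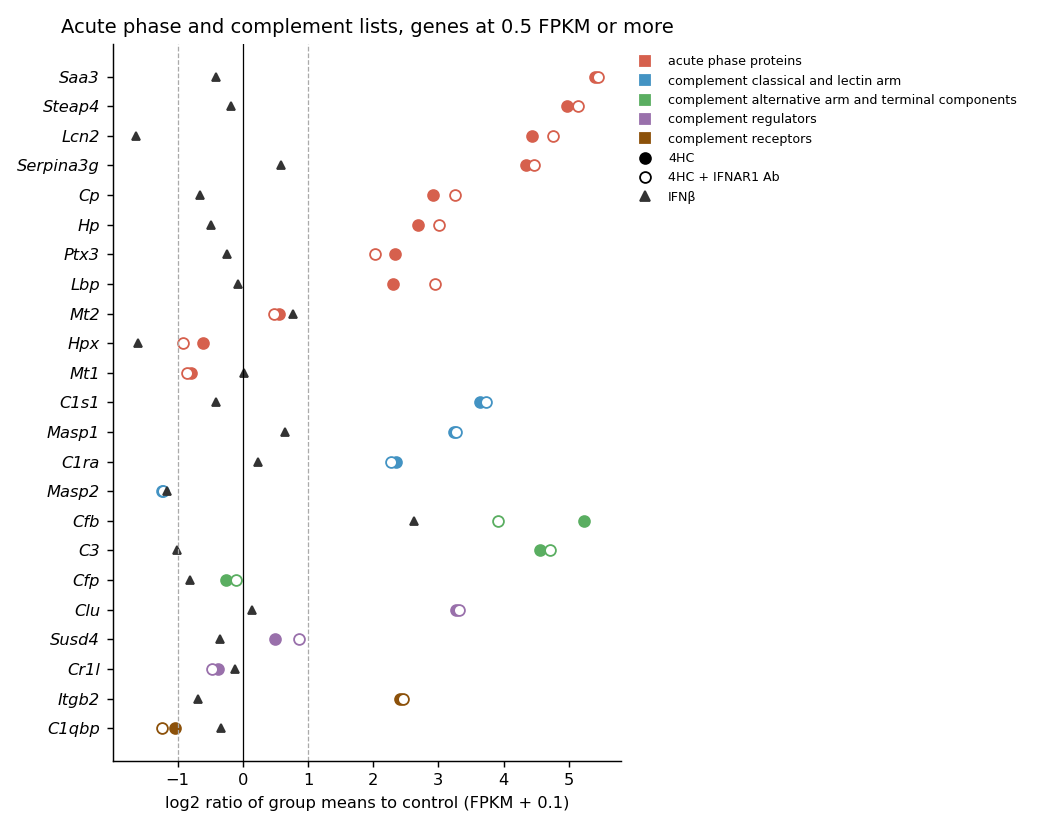
Log2 ratio of group means (FPKM + 0.1) to control for the genes of the acute phase and complement lists that reached 0.5 FPKM, with 4HC (filled circles), 4HC with antibody (open circles) and IFNβ (triangles), coloured by list; dashed lines mark 2-fold. Filled and open circles lie close together for most genes, Cfb has the widest gap between them, and Cfb has the highest triangle.

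Of 23 inducing cytokines and receptors, 19 reached 0.5 FPKM. With 4HC 8 of 17 rose and 0 fell, beside 14.8% and 2.06% of all genes tested. In the antibody comparison 0 of 17 passed, near the 0.638% of all genes that fell, so this count is no result about the list. Of the 8, 3 (Il6, Tnf and Il11) were below 0.5 FPKM in control and reached it through treated groups alone. Il1a, an inducer of acute phase genes, rose from 1.35 to 41.3 FPKM with 4HC and 41.0 with antibody (4HC adjusted p = 1.44e-07, limma) and fell with IFNβ to 0.583 FPKM (adjusted p = 0.0016). Tlr3, the sensor of double-stranded RNA, rose with IFNβ from 3.58 to 34.0 FPKM (adjusted p = 5.72e-07), and had 7.14 FPKM with 4HC and 4.77 with antibody. The receptor genes Ifngr2, Tnfrsf1a and Il6st stayed within 2-fold of control in every group. Chosen after their values were seen, Il6 went from 0.0137 FPKM to 1.15 with 4HC, or 1.13 when antibody was added, and Tnf from 0.0603 FPKM to 1.64 and 1.54. Both rose with 4HC (adjusted p = 1.41e-06 and 2.51e-06).

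Of 21 transcription factors and feedback genes, 20 reached the level. With 4HC 10 of 20 rose and 0 fell, beside 14.8% and 2.06% of all genes tested. In the antibody comparison, where 0.638% of all genes fell, 4 of the 19 tested here did. The 5 most abundant did not pass with 4HC: Cebpb had 39.1 FPKM in control and 56.9 with 4HC, Nfkbia 32.8 and 39.4, Nfkb2 22.4 and 36.7, Rela 23.9 and 24.7, and Irf1 16.0 and 21.3. Cebpb, a C/EBP factor that drives acute phase promoters, fell with IFNβ to 11.7 FPKM (-1.74 on the log2 scale, adjusted p = 0.00013, limma). Chosen after their values were seen, Cebpd rose from 0.907 to 9.53 FPKM with 4HC and had 7.76 with antibody (4HC adjusted p = 8.76e-08), and Irf7, an interferon-responsive factor, had 0.560 FPKM in control, 17.5 with 4HC, 1.20 with antibody and 61.4 with IFNβ. Irf7 fell by 3.72 on the log2 scale in the antibody comparison (adjusted p = 0.000132). Of the partners of SAA and lipocalin, Mmp9, a protease whose human form binds lipocalin 2, had 4.10, 51.3 and 51.8 FPKM in control, 4HC and antibody and could not be tested in these groups. The SAA receptor Scarb1 had 7.26 and 8.94 FPKM in control and 4HC. Tlr2, another receptor for SAA, rose with IFNβ from 2.83 to 7.42 FPKM (adjusted p = 0.000264).

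The genes whose 3 log2 ratios to control lay nearest those of Saa3, among 10778 at 1 FPKM or more, were Mmp13 (Euclidean distance 0.45), Steap4 (0.57) and Bst1 (0.69). Mmp13, a collagenase, had 0.448 FPKM in control, 18.5 with 4HC, 19.2 with antibody and 0.290 with IFNβ. Nearest to C3 were Il1a (0.32), the growth factor gene Csf2 (0.48) and the chemokine gene Cxcl5 (0.49). Cxcl5 had 5.36, 140, 168 and 1.93 FPKM in the same order. Cd55 has so few reads that its ratios lie near 0 on this scale, and its neighbours, Smad1, Clk3 and Rfc4, were genes with nearly the same level in all groups.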

How the data were processed

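Polyadenylated RNA of 11 libraries from 4T1 cells was sequenced with a strand-marking kit. Per the labels, the authors mapped reads to mm9 with TopHat2, counted them with featureCounts and compared groups with edgeR (versions, and whether counting used strand, not given in the sources used here). The deposited table gives FPKM as the authors' mean per group. Its columns of the authors' own ratios, fold changes and adjusted p-values were not used.

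Since an FPKM mean is a sum of whole reads over depth and gene length, depths were solved from receptor genes with 1 read. Each gene's length and library reads were then searched over annotated lengths (GENCODE vM21). Every library of a treated group was kept within 3-fold of its mean where that mean gave the deepest library over 60 reads. A single length was found for 17136 of 18164 genes (94.3%), and all libraries were solved for 10331 of the 11616 genes at or above 0.5 FPKM in a group. Genes with many reads were solved least often, so the tests lack many abundant genes. The genes solved in all libraries held 23.9 to 25.1% of the reads of a library. The search and the test were tried on simulated data, drawn from genes already solved in all libraries and with the solved depths. Such data cannot check wrong depths or genes with as many reads as Lcn2 and C3.

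Ratios of means used a pseudocount of 0.1 FPKM, the 0.5 FPKM filter and a 2-fold limit. The test, limma 3.58.1 (trend, R 4.3.3) on log2(FPKM + 0.1) of the solved libraries, was added after the data were seen; the plan had assumed means alone. The alternatives included voom on the solved reads, and no negative binomial model was run. A call needed a Benjamini-Hochberg adjusted p below 0.05 over all genes tested and a difference over 2-fold. All genes shifted by a median of 0.14 (log2) with 4HC, 0.12 with antibody and 0.03 with IFNβ. Counting intervals are exact (Clopper-Pearson, 95%) on pooled reads, and the floor is 3 counts over a group. The libraries of a group are separate cultures per the series' design text. Il6, Il11, Tnf, Cebpd, Irf7, Cfd, C6 and C8b apart, named genes follow a rule: all members, up to 5 further genes of each list by mean FPKM, and the 3 nearest patterns to Saa3, C3 and Cd55. C1s was read as the row C1s1. A further gene of the complement regulator list is not reported here and was left out of its counts. Members and lists were chosen with earlier results of these data known. Rows whose gene names had become dates (27) were left out. Coordinates are the table's, in mm9, except the promoters.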

Additional observations from a re-analysis of the deposited data

How the results depend on the processing

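The counts of members past 2-fold held with 4HC over control and with antibody over control, at 5 under 0.01 and 1 FPKM as pseudocount, a 1 FPKM filter, median centring, a 1.5-fold limit and without each library in turn. With no filter they were 6, with Saa2 added, and for IFNβ over control 4, with Saa1 (lower) added. Limma with no filter also called Saa2 with 4HC over control and with antibody over control. For IFNβ it then called Cfb, Lcn2 and Saa1, and C3 was lost. For antibody over 4HC the count of 1 (Cfb) was 0 at a pseudocount of 1 FPKM, and from 0 to 1 without each library in turn; for IFNβ over control the count of 3 was 1 (Lcn2) at that pseudocount, which shrinks differences at low levels by construction, and from 2 to 4 without each library. The median share kept with antibody was 97.5 to 105% under the alternatives. In the limma test, chosen after the data were seen, antibody over 4HC had 1 member called with voom (Cfb) and from 0 to 1 without each library; the call appeared without the middle or the shallowest IFNβ library, which enter the shared spread. For IFNβ over control, 1 member was called at a pseudocount of 1 FPKM (Lcn2) and 1 with voom (Cfb; Lcn2 and C3 could not be fitted), and from 2 to 3 without each library. Of 252 single differences, 242 stayed on their side of the threshold. Where the main or the alternative result was a call, 0 changed sign. Differences that were not called did change sign in places, such as Saa3 with IFNβ, from -0.08 to 1.04 without the deeper control. No paired analysis was possible because the solved libraries could not be tied to replicate numbers. Lcn2 and C3 with 4HC have no test, and 4 members are limited by depth.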
